A study of Mus musculus with 8 samples.

Results

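The family of miR-148a, miR-148b and miR-152 (mmu-miR-148a, mmu-miR-148b and mmu-miR-152 in the array annotation, by which names they were taken) makes up 3 of the 567 mouse miRNAs on the array. It was measured in bone marrow-derived dendritic cells of C57BL/6 mice, an inbred laboratory strain. In the CpG group (4 samples) the cells spent a night with ODN1826, a class B CpG oligonucleotide, at 10 µM, and in the untreated group (4 samples) they did not. Both groups had grown with GM-CSF, a growth factor for myeloid cells, at 40 ng/ml, and on day 9 the cells that did not adhere were used. The labels call the control medium alone in 1 place and PBS in another. There was no control oligonucleotide, and sensing of the CpG motif by the receptor TLR9 and other actions of an oligonucleotide therefore cannot be told apart. Replicates carry numbers but are not stated to be separate animals or cultures. The p-values below thus rest on the spread among these arrays, part of which may be technical.

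miRNAs are short RNAs that pair with target mRNAs mainly through their seed, bases 2 to 8, and lower the output of those mRNAs. The 3 members share a seed and are known as regulators of the DNA methyltransferase Dnmt1. In mouse dendritic cells they have been described as rising after Toll-like receptor ligands, among them CpG, and as restraining cytokine release and antigen presentation by targeting the kinase Camk2a. The question here is how much of each member was measured in CpG and untreated cells, and whether the members differed from each other in their change.

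The mature sequences are shown because the members are so alike that their probes read closely related targets. They are from RefSeq (GRCm38.p6), 5′ to 3′, with the seed in capitals.
miR-148a: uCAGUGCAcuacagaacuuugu
miR-148b: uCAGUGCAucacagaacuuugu
miR-152: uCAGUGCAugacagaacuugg
These lie at chr6:51269829-51269850 on the minus strand, at chr15:103285185-103285206 on the plus strand and at chr11:96850439-96850459 on the plus strand, in the order shown. Of 1679 mature mouse miRNAs in the RefSeq table, these 3 were the ones with this seed at bases 2 to 8. Counted from 1 at the 5′ end, miR-148a and miR-148b were identical at 20 of 22 bases and differed by C9U and U10C. miR-148a and miR-152 were identical at 18 of 21 bases and differed by C9U, U10G and U20G, and miR-148b and miR-152 differed by C10G and U20G.

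Each mature miRNA is cut from the 3′ arm of a hairpin, and the hairpins show how far the members diverge outside the mature arm, which is in capitals here.
miR-148a hairpin: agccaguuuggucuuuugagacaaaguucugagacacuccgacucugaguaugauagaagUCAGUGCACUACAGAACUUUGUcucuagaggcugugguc
miR-148b hairpin: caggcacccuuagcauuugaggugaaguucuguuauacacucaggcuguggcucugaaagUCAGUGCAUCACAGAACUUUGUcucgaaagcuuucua
miR-152 hairpin: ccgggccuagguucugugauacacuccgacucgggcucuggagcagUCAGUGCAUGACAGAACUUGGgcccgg
In RefSeq (GRCm38.p6) the gene Mir148b lies within the span of Copz1, and Mir152 within that of Copz2. These host genes encode paralogous subunits of the COPI vesicle coat. Mir148a lies within the span of a predicted gene, Gm38821. Whether these positions are exonic or intronic was not analysed here.

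The array carried 2 probes for each member, in 10 spots each. Per the array annotation (mm9), the probes of miR-148a match 19 and 20 bases, from 51219828 to 51219846 and to 51219847 on chromosome 6. Those of miR-148b match 18 and 19 bases, from 103115620 and from 103115619 to 103115637 on chromosome 15. Those of miR-152 match 16 and 17 bases, from 96711758 and from 96711757 to 96711773 on chromosome 11. Wherever such a stretch lies within its miRNA, it covers bases 9 and 10, at which the members differ. How much each probe also binds the other members was not tested. A probe's brightness depends on its sequence, so that levels of different members are not set against each other here.

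As a check of the cells, the 3 myeloid miRNAs miR-223, miR-142-3p and miR-142-5p were detected on all 8 arrays, while 0 of 2 erythroid, 0 of 2 endothelial, 0 of 3 stromal and 0 of 4 markers of other tissues were detected on any. Of the lymphoid markers, miR-181a was detected on all arrays and miR-150 on none. The epithelial markers miR-200c and miR-141 were each detected on 4 CpG arrays and 1 untreated array, with signals of up to 8.21 units, and miR-205, the third of that list, on 0 of 8 arrays. None of these markers tells dendritic cells from other myeloid cells. The CpG arrays were brighter as a whole. The 75th percentile of miRNA signal, taken over the 177 miRNAs detected on all arrays, lay between 156.7 and 280.5 intensity units on CpG arrays and between 101.1 and 143.8 on untreated arrays. The geometric means of this percentile differed 1.74-fold, while 4 bright control features named hur differed 1.18-fold. On CpG arrays 213 to 236 mouse miRNAs were detected, and on untreated arrays 191 to 203. Divided by the percentile of its array, the signal of miR-200c had a log2 difference, CpG minus untreated, of -0.17 (limma adjusted p = 0.47). That of miR-141 was -0.06 (limma adjusted p = 0.78). In such bulk samples fewer cells that carry a miRNA cannot be told apart from less of it per cell.

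All 3 members were detected on all 8 arrays. Before any scaling between arrays, each was brighter on every CpG array than on any untreated array. The total gene signal of miR-148a was 42.6, 50.5, 50.7 and 58.6 intensity units in CpG replicates 1 to 4, against 29.1, 26.4, 38.4 and 28.2 units in untreated replicates 1 to 4. That of miR-148b was 42.3, 48.3, 40.7 and 67.0 units in CpG replicates 1 to 4, against 32.5, 33.3, 37.8 and 34.5 units in untreated ones. That of miR-152 was 33.6, 27.6, 29.2 and 38.1 units with CpG, against 26.6, 21.8, 25.2 and 19.7 units without. The groups thus did not overlap for any of the 3, and CpG replicate 4 was the brightest array for each.

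The means of this deposited signal were 50.6 ± 6.53 units in CpG samples and 30.5 ± 5.36 in untreated samples for miR-148a, 49.6 ± 12.1 and 34.5 ± 2.31 for miR-148b, and 32.1 ± 4.71 and 23.3 ± 3.11 for miR-152 (SD, n = 4 each). The ratios of means were 1.66 for miR-148a, 1.44 for miR-148b and 1.38 for miR-152. The error that the scanner software gives for a single array was 8.26% to 11.5% of the signal over the 3 members. Of the 212 miRNAs tested, 84, or 39.6%, had all CpG arrays above all untreated arrays before scaling, so that non-overlap of this kind was common on these arrays and is not particular to the family.

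**Figure D1:**
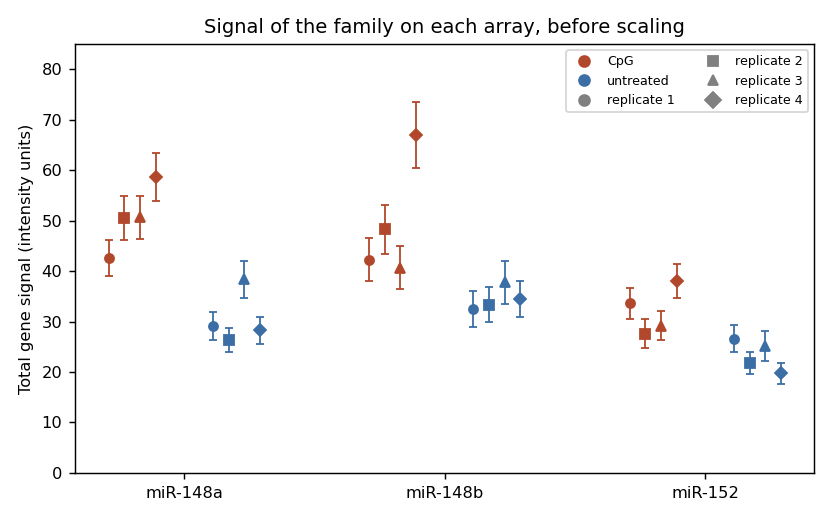
Total gene signal (intensity units) of miR-148a, miR-148b and miR-152 on each array before scaling, CpG left of untreated, with bars giving the error the scanner software reports for that array. Each CpG point lies above every untreated point of the same miRNA, with CpG replicate 4 the highest; heights of different miRNAs come from different probes and are not comparable.

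For the comparison between groups, signals were divided by the 75th percentile of their own array and taken as log2, so that 0 is that percentile. After this scaling the groups overlapped for every member, while they did not for 26.9% of the 212 miRNAs tested. miR-148a read -2.37, -2.76, -2.32 and -2.71 in CpG replicates 1 to 4, against -2.30, -2.67, -2.40 and -2.55 in untreated replicates 1 to 4 on the scaled log2 scale. Its CpG values lay on both sides of most untreated values. miR-148b read -2.39, -2.83, -2.64 and -2.52 with CpG, against -2.14, -2.33, -2.43 and -2.26 without. Here 3 CpG arrays lay below all untreated arrays, and CpG replicate 1 lay among them. miR-152 read -2.72, -3.64, -3.12 and -3.33 with CpG, against -2.43, -2.94, -3.01 and -3.07 without. Again 3 CpG arrays were below all untreated ones. Within the CpG group replicate 2 was lowest for all 3 members. Replicate 1 was the highest of its group for miR-148b and miR-152 in both groups.

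**Figure D2:**
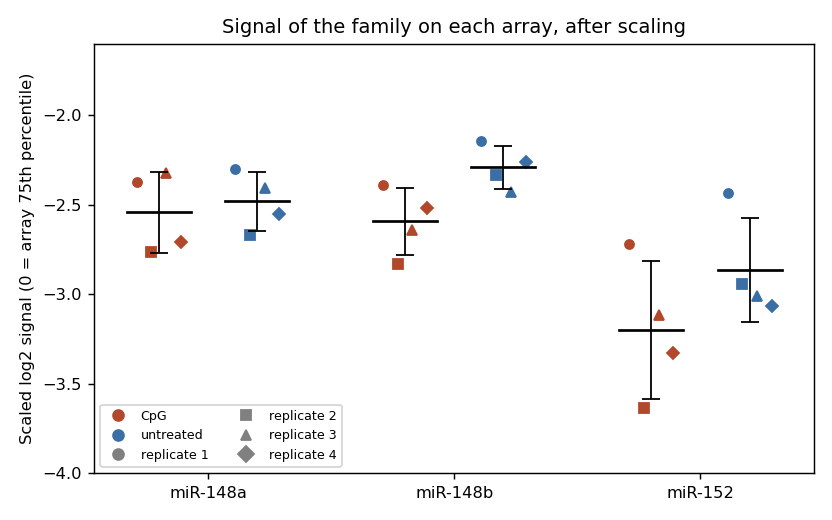
Scaled log2 signal of the 3 members on each array (0 is the array's 75th percentile), CpG left of untreated, with lines and bars for mean and SD of 4 arrays. The groups overlap for each member, and for miR-148b and miR-152 the CpG means lie below the untreated means.

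None of the 3 members passed the test, against 14.2% of the 212 miRNAs (30 called, limma with Benjamini-Hochberg adjustment over all 212). miR-148a averaged -2.54 ± 0.23 in CpG and -2.48 ± 0.16 in untreated samples (SD, n = 4 each), a log2 difference of -0.06 (SE 0.16, 95% interval -0.42 to 0.30, limma adjusted p = 0.78). miR-148b averaged -2.59 ± 0.19 in CpG and -2.29 ± 0.12 in untreated samples, a difference of -0.30 (SE 0.14, 95% interval -0.63 to 0.02, limma adjusted p = 0.15). miR-152 averaged -3.20 ± 0.39 in CpG and -2.86 ± 0.29 in untreated samples, a difference of -0.34 (SE 0.22, 95% interval -0.84 to 0.16, limma adjusted p = 0.26). The intervals span no change in all 3, and their lower ends reach a fall by 0.84 for miR-152.

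These differences are relative to the array's 75th percentile, and the scaling fixes their sign. The median log2 difference of all 212 miRNAs was -0.19 after scaling, and 137 of them (64.6%) lay below 0. Relative to that median miR-148a was at 0.13, miR-148b at -0.11 and miR-152 at -0.14. Without scaling, where the median of all 212 was 0.60, the log2 differences were 0.74 for miR-148a, 0.50 for miR-148b and 0.46 for miR-152. There miR-148a passed (limma adjusted p = 0.0245) and miR-148b and miR-152 did not (limma adjusted p = 0.0825 and 0.0809), among 41.5% of miRNAs called. Scaled on the hur control features, which leaves the median of all at 0.36, they were 0.49, 0.25 and 0.22, and again miR-148a passed (limma adjusted p = 0.0158) and miR-148b and miR-152 did not (limma adjusted p = 0.0741 and 0.27), with 33% of miRNAs called. Whether the greater brightness of the CpG arrays reflects more miRNA in the cells was not tested.

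**Figure D3:**
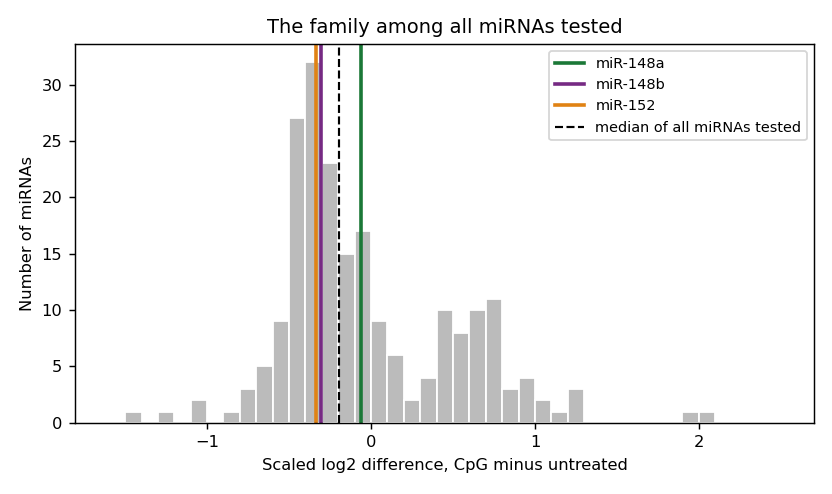
Histogram of the scaled log2 difference, CpG minus untreated, of the 212 miRNAs tested, with lines for the 3 members and a dashed line for the median of all at -0.19. miR-148a at -0.06 lies to the right of the median, and miR-148b at -0.30 and miR-152 at -0.34 to the left.

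By slide row, the log2 differences were -0.12 for miR-148a, -0.25 for miR-148b and -0.28 for miR-152 on row 1 (replicates 1 and 4), and -0.0055, -0.36 and -0.40 on row 2 (replicates 2 and 3), with 2 arrays per group on each row. Both rows held both groups on 1 slide scanned once, and the signs were the same on both. The SE was 0.29, 0.27 and 0.38 on row 1 and 0.32 for each on row 2, so that these signs carry little weight. The median of all miRNAs tested was also below 0 on both rows, at -0.15 and -0.23. Leaving out CpG replicate 2, the lowest CpG array, turned miR-148a to 0.013 (limma adjusted p = 0.98). It left miR-148b at -0.22 and miR-152 at -0.19 (limma adjusted p = 0.28 and 0.54). Without CpG replicate 1, miR-152 was at -0.50 (limma adjusted p = 0.0822) and miR-148b at -0.37 (limma adjusted p = 0.0843).

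The 2 probes of a member moved alike in sign. For miR-148a the 19-base probe read 21.3 to 27.2 units on CpG arrays and 13.1 to 17.7 on untreated arrays, with a scaled log2 difference of -0.08, and the 20-base probe read 39.1 to 58.7 and 25.9 to 36.7 units, with a difference of -0.05. For miR-152 the 16-base probe read 13.8 to 19.9 units with CpG and 11.04 to 14.4 without, a difference of -0.40. Of its spots 91.2% were well above background, with every spot so on 4 of 8 arrays. The 17-base probe read 25.9 to 35.8 and 17.7 to 23.1 units, a difference of -0.30, with 100% of its spots well above background. For miR-148b the 19-base probe carried nearly all of the signal, at 53.9 to 91.3 units with CpG and 42.5 to 50.4 without, a difference of -0.32. Its 18-base probe read 3.39 to 6.76 units with CpG and 2.54 to 3.33 without, and 0% of its spots were well above background. Its difference of -0.05 thus has no weight, and the value of miR-148b rests on 1 probe. Spots of 1 probe on 1 array had a median coefficient of variation between 7.93% and 14.0% in the 5 other probes and of 32.7% in this one. No spot of the family was saturated (0 of 80 for each probe).

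The make-up of the family was read as ratios of 2 members on the same array, which do not depend on a scaling by 1 factor per array, but can change with quantile normalization or loess. Since probes differ in brightness, only the difference of such a ratio between groups is read, not its size. The log2 ratio of miR-148a over miR-148b was 0.01, 0.07, 0.32 and -0.19 in CpG replicates 1 to 4, against -0.16, -0.34, 0.02 and -0.29 in untreated ones. On CpG arrays 2 of 4 ratios lay above all untreated ones, and the groups overlapped. It averaged 0.05 ± 0.21 in CpG and -0.19 ± 0.16 in untreated samples (SD, n = 4 each), a difference of 0.24 (interval -0.21 to 0.66, exact permutation p = 0.14, adjusted p = 0.21 over the 3 ratios). The log2 ratio of miR-148a over miR-152 was 0.34, 0.87, 0.80 and 0.62 with CpG, against 0.13, 0.27, 0.61 and 0.52 without. Here 3 of 4 CpG ratios lay above all untreated ones, and the means differed by 0.28 (interval -0.26 to 0.74, exact permutation p = 0.11, adjusted p = 0.21). miR-148b over miR-152 averaged 0.61 ± 0.24 with CpG and 0.57 ± 0.21 without, a difference of 0.03 (interval -0.47 to 0.52, exact permutation p = 0.86). The intervals hold the shifts that the exact two-sided test over the 70 arrangements of the arrays did not reject. The smallest possible p of this test was 0.0286. A ratio at that p could pass 0.05 after adjustment over the 3 ratios only if another ratio was also at it.

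In shares of the summed processed signal of the 3 members, miR-148a made up 36.0%, 40.0%, 42.1% and 35.8% in CpG replicates 1 to 4, against 33.0%, 32.3%, 37.9% and 34.3% in untreated ones. The mean share was 38.5% ± 3.07 in CpG and 34.4% ± 2.47 in untreated samples (SD, n = 4 each). These are shares of probe signal, not of molecules, and 2 of the 4 CpG values lay within the untreated range and 2 above it. The share of miR-148b was 37.1% ± 3.11 and 39.2% ± 2.51, and that of miR-152 24.4% ± 2.79 and 26.4% ± 2.74, in CpG and untreated samples. A difference in make-up between the groups was not detectable with 4 arrays each.

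**Figure D4:**
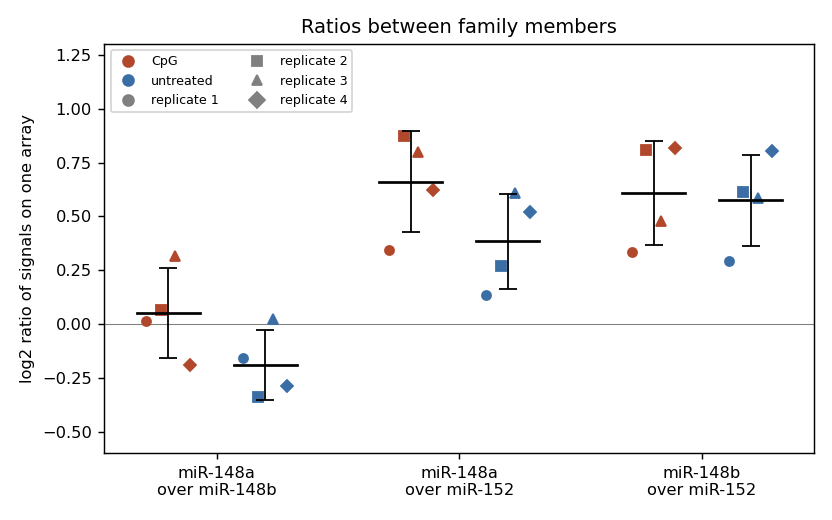
log2 ratio of the signals of 2 members on the same array, CpG left of untreated, with lines and bars for mean and SD of 4 arrays and replicate numbers as symbols. The ratios with miR-148a on top have higher means with CpG, by 0.24 and 0.28, and the groups overlap in all 3 ratios.

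The passenger arm miR-148a*, cut from the other arm of the same hairpin, was detected on 0 of 8 arrays. Its signal lay between -1.14 and -0.84 units on CpG arrays and between -1.12 and -0.66 on untreated arrays, below 0 after background subtraction. The passenger arms of miR-148b and miR-152 were not analysed here.

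Profiles over the 8 arrays, each taken relative to its own mean, were compared by their root mean square difference. Among the 209 other tested miRNAs, the profile nearest to that of miR-148a was that of miR-146b (0.09 on the log2 scale), before miR-142-3p (0.10) and miR-29a (0.13), where the median over all was 0.34. Nearest to miR-148b were miR-140 (0.05), miR-652 (0.06) and miR-140* (0.06), with a median of 0.28 over all. Nearest to miR-152 were miR-24 (0.06), miR-27b (0.10) and miR-720 (0.12), with a median of 0.38. The members themselves differed from each other by 0.20 for miR-148a and miR-148b, 0.24 for miR-148a and miR-152, and 0.20 for miR-148b and miR-152. These distances were all below the medians over all miRNAs. The nearest profiles were picked as nearest out of 209, so that they are no measure against the other members.

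The 7 letters of the family's seed also open other miRNAs, at bases 1 to 7. They thus begin 1 base before the seed of those miRNAs, and are called a shifted seed here. The 4 such miRNAs on the array that RefSeq lists (GRCm38.p6) are shown with those letters in capitals.
miR-130a: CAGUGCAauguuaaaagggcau
miR-130b: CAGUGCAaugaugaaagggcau
miR-301a: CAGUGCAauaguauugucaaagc
miR-721: CAGUGCAauuaaaagggggaa
The mature sequences are at chr2:84741116-84741137 (minus strand), chr16:17124071-17124092 (minus strand), chr11:87113054-87113076 (plus strand) and chr5:136375777-136375797 (minus strand), in that order. miR-301b, also of this kind by its family, was matched by name alone. miR-130a was detected on 0 of 8 arrays, and 0 of the other 4 passed the test. The log2 differences were -0.18 for miR-130b (limma adjusted p = 0.37), -0.31 for miR-301a (0.18), -0.22 for miR-301b (0.64) and 0.10 for miR-721 (0.74). Their median of -0.20 compares with -0.30 for the 3 family members and -0.19 for all miRNAs tested. Without scaling all 4 were above 0, between 0.49 and 0.90, and miR-721 (0.90, limma adjusted p = 0.00766) and miR-130b (0.62, limma adjusted p = 0.0405) passed, among 41.5% of all miRNAs called. Each of these passed in 4 of 29 alternatives, which include the hur features (0.65 for miR-721 and 0.38 for miR-130b) and normexp (-0.29 and -0.25).

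Of 21 miRNAs chosen as studied in dendritic cells, 19 were tested, 3 rose, 1 fell and 15 did not pass, against 7.55% of all tested miRNAs called higher and 6.6% called lower. miR-155, induced by Toll-like receptor signalling, had scaled log2 values of 4.22 ± 0.20 in CpG and 2.30 ± 0.48 in untreated samples (SD, n = 4 each), a rise by 1.92 (SE 0.24, limma adjusted p = 0.00096). miR-146a, which restrains the same signalling, rose by 0.92 (SE 0.23, limma adjusted p = 0.0355). The rise of miR-222 was 1.14 (SE 0.20, limma adjusted p = 0.0111). miR-223, a myeloid miRNA, was lower by a log2 difference of -0.60 (limma adjusted p = 0.0284), and at 0.20 without scaling (limma adjusted p = 0.47). The calls of miR-146a and miR-223 held in 18 and 11 of 29 alternatives. With the array median as scale both were lost (limma adjusted p = 0.0568 and 0.0609). That of miR-146a was also lost without CpG replicate 2, 3 or 4 or untreated replicate 1, 2 or 4 (limma adjusted p = 0.0542 to 0.10), and that of miR-223 without CpG replicate 2 or 3 or untreated replicate 1, 2 or 4 (limma adjusted p = 0.0654 to 0.10). The 15 that did not pass ran from miR-10a at -0.54 (limma adjusted p = 0.0997) to miR-221 at 0.42 (limma adjusted p = 0.27). The 3 family members, at -0.06 to -0.34, did not pass either, so that their place within this range carries no weight. The median of the list was -0.07.

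**Figure D5:**
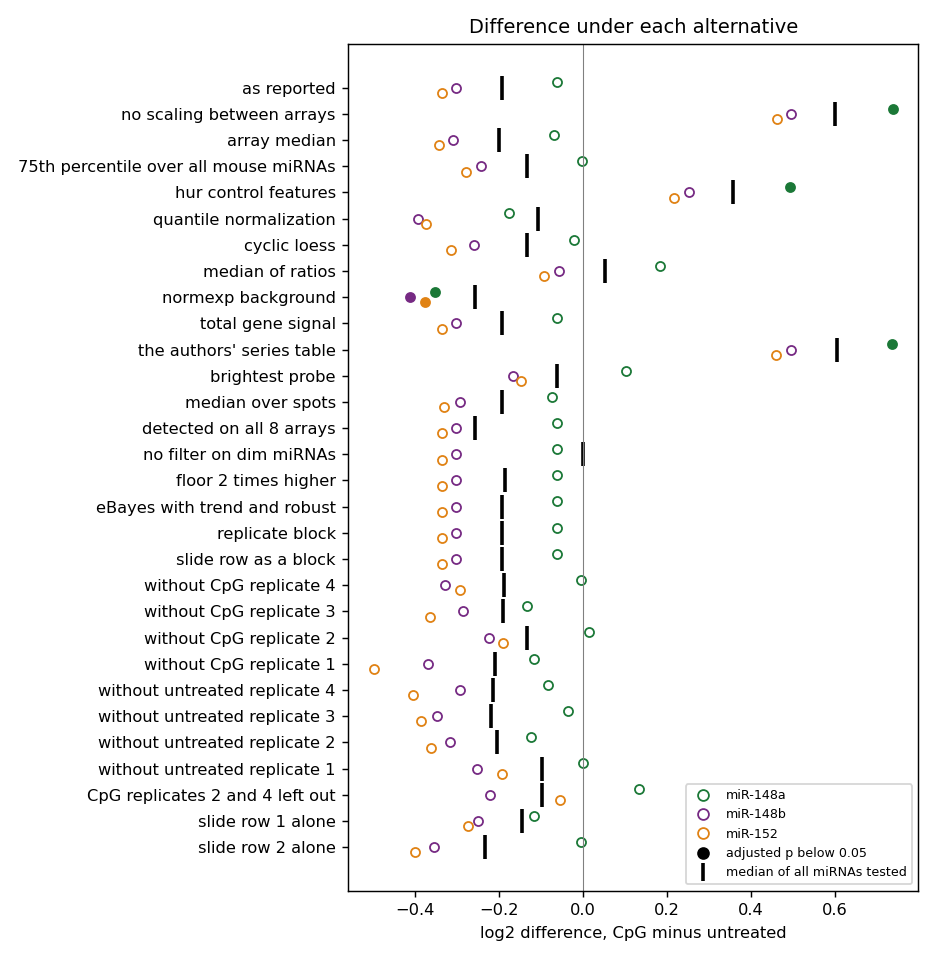
log2 difference, CpG minus untreated, of each member under each processing alternative, with filled points where the limma adjusted p is below 0.05 and black ticks at the median of all miRNAs tested. Members and median shift together where a scaling moves all miRNAs alike. miR-148a passes at 0.74 without scaling and in the authors' deposited table, at 0.49 on the hur features and at -0.35 with normexp.

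Across the 29 alternatives, the log2 difference of miR-148a ran from -0.35 to 0.74 and passed in 4. That of miR-148b ran from -0.41 to 0.50 and that of miR-152 from -0.50 to 0.46, each passing in 1, the normexp background correction, in which 67.5% of all miRNAs were called. miR-148a passed there, without scaling, on the hur features and in the authors' deposited table, in which 41% were called. Relative to the median of all miRNAs, which a scaling that shifts all miRNAs alike leaves as it is, miR-148a ran from -0.095 (normexp) to 0.23, miR-148b from -0.30 to -0.045 and miR-152 from -0.34 to 0.044. The low ends of miR-148b and miR-152 come from the setting without a filter, whose median includes the undetected miRNAs. With the filter they were -0.29 for miR-148b (quantile normalization) and -0.29 for miR-152 (without CpG replicate 1). The difference in the ratio of miR-148a over miR-148b ran from 0.059 (normexp) to 0.36, and that of miR-148a over miR-152 from 0.023 (normexp) to 0.39. Several alternatives leave these ratios as they are by construction, and those that block or leave out several arrays could not reach an exact p of 0.05.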

How the data were processed

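miRNA was measured in 4 CpG-treated and 4 untreated samples, labelled with Cy3 on the 8 arrays of 1 slide. The authors deposited scanner output. Per the file headers, it comes from Feature Extraction 9.5.3.1 by Agilent and gives 2 intensities, a background-subtracted and detrended processed signal per spot and a total gene signal per miRNA, the second with its error and whether it was detected. The authors' deposited series table held the same intensities (2080 of 2080 values within 0.1%). The submitters' processing notes name limma, with no version and no role.

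Spots without outlier flags were averaged per probe, then probes per miRNA. Signals were divided by the array's 75th percentile over the 177 miRNAs detected on all arrays, set to at least 0.0107 and taken as log2. A miRNA was tested if detected on at least 3 of 4 arrays of a group (212), with limma 3.58.1 in R 4.3.3, two-sided, with Benjamini-Hochberg adjustment and a threshold of 0.05. Ratios were compared by exact two-sided permutation. Arrays were also simulated for the 212 miRNAs, with the mean and spread of each and independent normal noise. In these, 81.9% of changes of 1 and 98.4% of changes of 2 on the log2 scale were recovered, and 5.59% of calls were false. The simulation held no deviation shared by the miRNAs of an array, so these rates may not hold for the real arrays. Changes as small as those of the members were not simulated. Alternatives covered scaling, background, probe summary, filter, floor, limma options, blocks and left-out arrays. Named miRNAs were the members, their passenger arms, called members of the dendritic cell list, detected miRNAs with the shifted seed and the 3 nearest profiles per member. The limits of that list's range were named after their values were seen. The members and lists were chosen with earlier results of these data known. Figures were drawn with Python 3.11.15 and matplotlib 3.10.9. The number of arrays limits the precision.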

Additional observations from a re-analysis of the deposited data

Results flagged for a closer look

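In 58 groups of 4 arrays checked for 1 array far from the other 3, 3 such arrays were found, where chance gives about 1 in 20. For miR-148a before scaling, the processed signal of untreated replicate 3 was 27.2 intensity units against a mean of 20.2 on the other 3 untreated arrays. After scaling that array no longer stood apart. miR-301b, a dim miRNA with the shifted seed, read -4.89 on the scaled log2 scale in CpG replicate 1 against a mean of -6.33 in the other 3, and -5.16 in untreated replicate 1 against a mean of -5.95.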

How the results depend on the processing

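Under the alternatives, 139 values of the members, their ratios and the count of calls stayed as reported in sign and call or within 1.5 times, 20 turned sign, 17 counts moved and 3 kept their sign and newly passed. Those of filter, floor, limma option and block leave each member's log2 difference as it is, so that only its call could change. miR-148a passed in 4 alternatives, 3 of them among those in which it turned sign, and miR-148b and miR-152 in 1 each. The calls numbered 30 as reported (16 higher, 14 lower). They were 88 (88 and 0) without scaling, 70 (68 and 2) on the hur features, 87 (87 and 0) in the authors' deposited table, 18 (11 and 7) with the median, 19 (9 and 10) with quantile normalization, 143 (4 and 139) with normexp, 16 (12 and 4) with the brightest probe, 3 without a filter, 48 (14 and 34) with a floor 2 times higher, 4 without CpG replicates 2 and 4, and 5 to 68 when 1 array was left out (68 without CpG replicate 1, 11 without CpG 2, 5 without CpG 3, 12 without untreated 1, 5 without untreated 2 and 17 without untreated 4). Slide row 1 alone gave 0 by limma, with 15 at an unadjusted p under 0.05. The cause of these shifts was not tested, except that normexp here adds 50 units to every signal before scaling, which weighs most on dim miRNAs.

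miR-148a, miR-148b and miR-152 turned to 0.74, 0.50 and 0.46 without scaling, and to 0.74, 0.49 and 0.46 in the authors' deposited table, where miR-148a passed (limma adjusted p = 0.0276). On the hur features they turned to 0.49, 0.25 and 0.22. With normexp all 3 passed, at -0.35, -0.41 and -0.38. miR-148a also turned to 0.18 with median of ratios, 0.10 with the brightest probe and 0.13 without CpG replicates 2 and 4. Leaving out 1 array gave -0.14 to 0.013 for miR-148a, -0.37 to -0.22 for miR-148b and -0.50 to -0.19 for miR-152. The ratio of miR-148b over miR-152 turned to -0.019 with quantile normalization, -0.035 with normexp, -0.020 with the brightest probe, -0.17 without CpG replicates 2 and 4, and lay at -0.059 to 0.13 when 1 array was left out.

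Of the other named miRNAs, those that turned sign were miR-130b, miR-301a and miR-301b without scaling (0.62, 0.49 and 0.58), on the hur features (0.38, 0.24 and 0.34) and in the authors' deposited table (0.62, 0.49 and 0.58), and miR-223 without scaling (0.20) and in that table (0.19). miR-130b and miR-301b did so with median of ratios (0.069 and 0.025), and miR-301b with the higher floor (0.068) and without CpG replicates 2 and 4 (0.14). miR-721 turned to -0.29 with normexp and -0.025 on slide row 1, and lay at -0.021 to 0.21 when 1 array was left out. miR-155 passed in 28 of 29 alternatives, miR-222 in 26, miR-146a in 18 and miR-223 in 11. Leaving out 1 array gave 0.79 to 1.07 for miR-146a (limma adjusted p = 0.0177 to 0.10) and -0.69 to -0.54 for miR-223 (limma adjusted p = 0.0256 to 0.10).

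With the replicate number as a block, the limma adjusted p was 0.68 for miR-148a, 0.0949 for miR-148b and 0.11 for miR-152, and 38 miRNAs were called. With the block the SE was 0.11 for miR-148a, 0.11 for miR-148b and 0.14 for miR-152. Without it the SE was 0.16, 0.14 and 0.22. The authors' deposited table labels CpG and untreated arrays with the same numbers, without stating a shared culture. Whether the numbers pair the samples could not be decided from correlations among so few arrays. Same-numbered arrays had deviations correlated at -0.26 to 0.28 across miRNAs, and 1 of 4 CpG arrays correlated best with its own number. Signal over background limits the 18-base probe of miR-148b and miR-301b, and to a lesser degree the 16-base probe of miR-152.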
